A study of Mus musculus with 6 samples.

Results

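The expression of 10 imprinted genes was examined in the fast-twitch EDL (extensor digitorum longus) muscle of mice lacking Akt1 and Akt2 in skeletal muscle. The genes were Snrpn, Ndn, Peg3, Mest, Meg3, Rian, H19, Plagl1, Impact and Dlk1, taken by symbol from a table of 24411 genes. All 10 were in the table and passed the filter on low counts, as did 12892 genes in all. The list was drawn up with the genotype comparison of these mice already known, so its members count as chosen by their differences in level between the genotypes. The differences of these 10 genes between the genotypes are therefore described here. Their calls in the tests over all genes are listed without a conclusion.

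RNA was analysed from 3 mice with both genes knocked out in skeletal muscle (mAktDKO), which carried Mlc1f-Cre and floxed Akt1 and Akt2, and from 3 control floxed mice, which carried the floxed genes without Cre. All were mice at the age of 50 weeks, with C57BL/6J as the strain named. The knockout mice came from crosses of floxed lines with a Cre knock-in line. Differences in genetic background between the groups were not measured. Cre was knocked in under the Mlc1f promoter, which is active mainly in fast-twitch fibres and little in satellite cells. Other cells of the muscle may therefore keep both genes, which was not measured here. The labels number the samples without saying that each is a separate animal, so the spread between libraries may be partly technical, and each library is called a mouse below.

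An imprinted gene is expressed mainly from a single parental copy, and the choice is set by DNA methylation laid down in the germ line. Imprinted genes lie in domains that share a control region, and many of them regulate growth before and shortly after birth, when they are highly expressed in muscle, and decline afterwards. Snrpn, Ndn, Peg3, Mest, Plagl1, Impact and Dlk1 are expressed from the paternal copy, and the non-coding RNAs Meg3, Rian and H19 from the maternal copy. The libraries do not separate the parental copies, so imprinting itself was not measured.

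Total counts were between 13738795 and 15445523 per mouse, and a gene with 3 counts lay between 0.194 and 0.218 CPM (counts per 1000000 counts of the scaled library), a floor that covers counting error only. Akt2 was at 51.3, 49.1 and 52.7 CPM in knockout muscle, against 172, 133 and 143 CPM in control muscle, so that its log2 fold change (log2 FC, mAktDKO over control) was -1.55 with a standard error (SE) of 0.11 and an adjusted p of 0.000923 by edgeR's quasi-likelihood test. With any 1 mAktDKO mouse left out the adjusted p of Akt2 was between 0.0165 and 0.0208 (edgeR) and its log2 FC between -1.59 and -1.52. Akt1 was at 58.9, 56.8 and 51.4 CPM against 66.4, 65.5 and 66.5 CPM, and its log2 FC was -0.25 (SE 0.080, edgeR adjusted p = 0.115), and counts per gene do not show how much of its targeted part was lost. Fast-twitch fibre markers were abundant in every mouse, with a summed level of 8 markers between 123339 and 151005 CPM. Control mouse 2 (the control libraries are numbered 2 to 4 in the table) was the farthest of the controls from the mAktDKO mice in the 10 genes.

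Of 10 imprinted genes, 9 had a higher mean in the mAktDKO mice and Snrpn alone had a lower one. At an adjusted p under 0.01, the study's level, which its authors applied with DESeq2, edgeR called 0 of the 10, against 0.0233% of all tested genes. With the same edgeR test 4 of the 10 had an unadjusted p under 0.05 (24.5% of all tested genes), and DESeq2 called Snrpn, as lower, at 0.01 (3.55% of all genes it tested, 2.61% in that direction). At an adjusted p under 0.05 edgeR also called Snrpn, against 1.18% of all tested genes and 0.915% in that direction. That call was lost with any 1 mAktDKO mouse left out, while with no filter on low counts edgeR called Snrpn at 0.01. The groups did not overlap for 2 of the 10, Snrpn and Plagl1, whereas 31.1% of all tested genes had groups apart. Because these values chose the list, nothing is read from the counts. The median log2 fold change of the 10 genes was 0.51, beside 0.017 over all tested genes. It was 0.17 without control mouse 2 and 0.94 without control mouse 3.

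**Figure D1:**
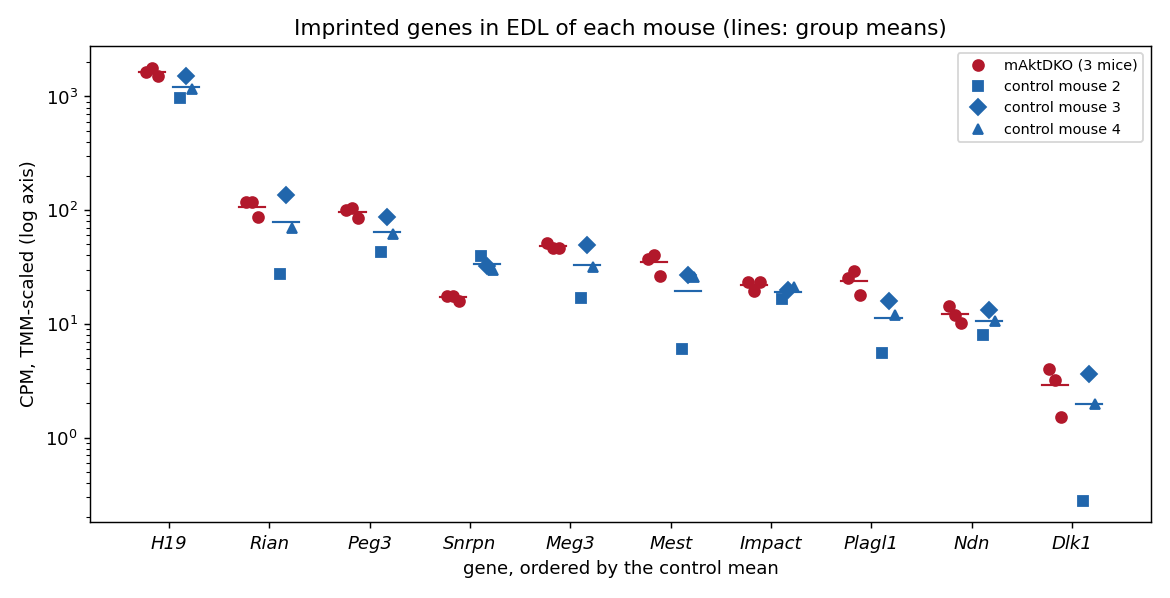
Level of each of the 10 imprinted genes in each mouse, as TMM-scaled CPM on a log axis. Red circles are the 3 mAktDKO mice, blue symbols the control mice 2 to 4, and lines the group means. Snrpn was lower in every mAktDKO mouse, and control mouse 2 was the lowest mouse for the other 9 genes.

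The sequences in front of the genes are shown first, because Snrpn and Snurf share theirs and were counted from overlapping transcripts. RefSeq promoter windows (GRCm38.p6, from 250 bases before to 50 after a start site) were found for 8 of the 10 genes, in 14 windows; H19 and Impact had no entry. The windows were searched on both strands for CGCATGCG, the core of the palindrome bound by nuclear respiratory factor 1 (NRF-1), for GGGGCCCC, which Plagl1 binds, and for GTAAACA, a forkhead motif read by FoxO factors, which Akt phosphorylates. None of these motifs overlaps another. The letters of the first were chosen after the windows had been read. Capitals mark the matches. The Snrpn window shown, chr7:60005150-60005449 on the minus strand, is also the window of Snurf. That of Ndn is chr7:62348027-62348326 (plus), that of Peg3 chr7:6730370-6730669 (minus) and that of Dlk1 chr12:109452573-109452872 (plus).
Snrpn and Snurf: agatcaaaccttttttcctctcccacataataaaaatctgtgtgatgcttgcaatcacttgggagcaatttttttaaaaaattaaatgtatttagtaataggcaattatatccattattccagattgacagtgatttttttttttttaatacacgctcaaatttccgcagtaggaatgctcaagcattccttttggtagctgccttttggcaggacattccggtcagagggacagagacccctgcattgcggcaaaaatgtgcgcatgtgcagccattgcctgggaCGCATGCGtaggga
Ndn: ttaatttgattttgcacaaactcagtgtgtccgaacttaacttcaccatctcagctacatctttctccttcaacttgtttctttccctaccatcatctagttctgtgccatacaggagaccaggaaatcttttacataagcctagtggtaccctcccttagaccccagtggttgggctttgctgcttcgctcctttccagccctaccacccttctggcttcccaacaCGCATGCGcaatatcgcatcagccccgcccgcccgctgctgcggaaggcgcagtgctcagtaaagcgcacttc
Peg3: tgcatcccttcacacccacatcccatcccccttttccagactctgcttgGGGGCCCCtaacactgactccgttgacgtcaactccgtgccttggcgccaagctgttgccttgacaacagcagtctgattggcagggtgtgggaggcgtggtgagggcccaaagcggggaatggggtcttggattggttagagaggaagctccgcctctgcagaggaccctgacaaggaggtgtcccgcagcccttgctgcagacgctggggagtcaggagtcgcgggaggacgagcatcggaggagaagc
Dlk1: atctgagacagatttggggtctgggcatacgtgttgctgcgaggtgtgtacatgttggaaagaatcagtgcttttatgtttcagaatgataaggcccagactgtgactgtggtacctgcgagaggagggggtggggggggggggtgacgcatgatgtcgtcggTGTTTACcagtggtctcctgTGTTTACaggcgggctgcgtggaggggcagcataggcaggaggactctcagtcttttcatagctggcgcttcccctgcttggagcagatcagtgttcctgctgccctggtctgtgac

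CGCATGCG occurred in the windows of 2 of the 8 genes, Snrpn and Ndn, its neighbour in the same imprinted domain, beside 2.07% of all genes and 1.87% of all 32851 windows of this length. All 4 windows of Snrpn held it. The letters of CGCATGCG were chosen after these windows had been read, so no conclusion is drawn from these shares. The 3 upstream windows of Snrpn share runs of 49 to 62 bases with each other. Those longest shared runs do not themselves hold the motif, and shorter runs were not measured. In all 3 windows the letters cctgcagcctggcaaacat stand shortly before the motif. Their matches thus lie in shared sequence and do not count as separate occurrences. GGGGCCCC was found in the Peg3 window only, against 1.08% of all windows. The forkhead motif occurred at 2 places in the Dlk1 window, in the letters TGTTTAC of the other strand, and 3.65% of all windows held it. A match is a description of the letters and does not show that a factor binds. The windows also differed in CpG sites, the usual target of DNA methylation, beside a median of 7 over all windows. Plagl1 had 26, the downstream windows of Mest, which share most of their bases, 17 each, and its upstream window 8. The upstream Meg3 window and that of Peg3 had 13 each, that of Ndn 11 and that of Dlk1 9. Those of Snrpn had 2, 3, 4 and 7, the downstream Meg3 window 1 and that of Rian 0.

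Snrpn encodes SmN, a core protein of the particles that splice pre-mRNA, and lies in the domain that is lost in Prader-Willi syndrome. The gene runs on the minus strand of chromosome 7 of mm10 from 59982495 to 60140219 (GENCODE M21). Its level was 17.6, 17.7 and 16.0 CPM in knockout muscle, against 39.4, 32.3 and 29.6 CPM in control mice 2, 3 and 4. Every mAktDKO mouse was below every control, and the mAktDKO mice lay close together. Mean levels were 17.1 ± 0.984 CPM in knockout muscle against 33.8 ± 5.06 CPM in control muscle (SD, n = 3 each), which is 0.506 of the control level or a log2 FC of -0.98 (SE 0.12). Without control mouse 2, the highest of the controls, it was -0.86.

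Snurf is encoded by the upstream part of the same transcript, so reads of the shared exons fit both genes. The estimated counts of Snrpn and of Snurf were not whole numbers in any of the 6 mice, while their sum was whole within 0.005 in all 6. The sums were 301, 311 and 241 counts in the mAktDKO mice and 593, 491 and 403 in the control mice. Most of each sum was assigned to Snrpn, from 233.33 to 296.49 counts in the mAktDKO mice and from 391.73 to 563.68 in the controls. With both genes counted as 1, the log2 FC was -0.99 (SE 0.12), against -0.98 for Snrpn counted alone. Snurf by itself was at 1.46, 0.899 and 0.549 CPM against 2.03, 3.50 and 0.832 CPM, and its groups overlapped. Snrpb encodes SmB, the widely expressed protein most like SmN; its counts were whole in every mouse.

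Among the other genes of the Snrpn domain, Snhg14 had a negative log2 FC and Ndn and Ube3a had positive ones. Ndn, whose product necdin restrains cell division, lies on chromosome 7 from 62346569 to 62350262 and was at 14.5, 12.0 and 10.3 CPM in knockout muscle, against 8.04, 13.1 and 10.7 CPM in control muscle. The groups of Ndn overlapped in part, with mAktDKO mouse 1 the highest and control mouse 2 the lowest of all mice. The log2 FC was 0.21 (SE 0.19), with 0.043 without control mouse 2, 0.39 without control mouse 3 and 0.072 without mAktDKO mouse 1. In the ratio of Snrpn to Ndn counts within a mouse, which does not depend on scaling between mice, the mAktDKO mice had 1.22, 1.48 and 1.56 and the control mice 4.90, 2.46 and 2.78. Every mAktDKO ratio was below every control ratio. This ratio carries the difference of Snrpn, by which the gene was chosen, and is no separate result. Snhg14, the long RNA that continues downstream of Snrpn and hosts small nucleolar RNAs, was at 1.97, 1.02 and 1.23 CPM against 2.10, 2.26 and 3.33 CPM, lower in every mAktDKO mouse at a level of few counts (log2 FC -0.86, SE 0.32, edgeR adjusted p = 0.15). Ube3a, a ubiquitin ligase gene imprinted in neurons, was between 148 and 169 CPM in all mice (log2 FC 0.086, edgeR adjusted p = 0.501), with a log2 FC of 0.029 without mAktDKO mouse 3 and of 0.22 with library totals in place of TMM. Peg12, an intronless gene of the domain, was between 0.769 and 1.74 CPM (edgeR adjusted p = 0.727), and Magel2 and Mkrn3 were under the filter.

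The partners of SmN were taken from a list of 12 Sm and U1 and U2 particle proteins, all of which were tested. None of the 12 was called at an adjusted p under 0.01 with edgeR or with DESeq2, which gave 10 of them an adjusted p. With edgeR 3 of the 12 had an unadjusted p under 0.05, beside 24.5% of all tested genes: Snrpb and Snrpd2, both lower, and Snrpf, higher (log2 FC 0.38, edgeR adjusted p = 0.171). Snrpb was at 58.1, 51.8 and 54.1 CPM in knockout muscle, against 69.8, 67.5 and 64.6 CPM in control muscle (log2 FC -0.30, SE 0.080, edgeR adjusted p = 0.0798). Snrpd2, like Snrpf a protein of the Sm ring, had a log2 FC of -0.34 (SE 0.095, edgeR adjusted p = 0.0896). The ratio of Snrpn to Snrpb counts was 0.304, 0.343 and 0.296 in the mAktDKO mice and 0.564, 0.479 and 0.458 in the controls, so the groups of this ratio did not overlap. It too carries the difference by which Snrpn was chosen.

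Among all 12892 tested genes, those whose centred log2 CPM followed Snrpn most closely over the 6 mice were Homer2, Lars2, Msrb2, Xpa and Zfp773. Their root mean square differences from Snrpn were between 0.0833 and 0.136 on the log2 scale, and each of the 5 had a lower mean in knockout muscle, with log2 fold changes from -1.003 to -0.85. Lars2 charges the mitochondrial leucine tRNA, Msrb2 repairs oxidised methionine in mitochondria, and Homer2 is a scaffold protein. This likeness is a description over 6 mice and includes the difference between the groups.

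Plagl1 and Peg3 encode zinc-finger proteins that bind DNA, and Plagl1 is known to raise other imprinted genes. Plagl1, on chromosome 10 from 13060504 to 13131694, was at 25.2, 29.0 and 18.0 CPM in knockout muscle, against 5.59, 16.0 and 12.0 CPM in control mice 2, 3 and 4. The mAktDKO mice were all above the controls, by a narrow gap between mAktDKO mouse 3 and control mouse 3. The means were 24.1 ± 5.57 and 11.2 ± 5.24 CPM (SD, n = 3 each), with a log2 FC of 1.11 (SE 0.32) and of 0.78 without control mouse 2. Peg3, on chromosome 7 from 6703892 to 6730431, was at 101, 105 and 85.6 CPM against 42.6, 88.0 and 62.0 CPM. The groups of Peg3 met at mAktDKO mouse 3 and control mouse 3. Its log2 FC was 0.60 (SE 0.22), and 0.37 without control mouse 2. Zim1, a zinc-finger gene of the same domain expressed from the maternal copy, was at 12.1, 14.6 and 10.01 CPM against 3.78, 10.4 and 7.79 CPM (log2 FC 0.75, SE 0.30, edgeR adjusted p = 0.174). Without control mouse 2 the log2 FC of Zim1 was 0.43. Peg3 counts per Zim1 count were 8.35, 7.15 and 8.55 in the mAktDKO mice and 11.3, 8.43 and 7.96 in the control mice, so this ratio overlapped. Usp29, which starts beside Peg3 on the opposite strand, was between 0.280 and 1.24 CPM (edgeR adjusted p = 0.727).

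The Dlk1-Meg3 domain of chromosome 12 holds the protein-coding Dlk1, expressed from the paternal copy, and the non-coding Meg3 and Rian, expressed from the maternal copy in the same direction. Meg3, from 109541001 to 109571726, was at 51.5, 46.5 and 46.6 CPM in knockout muscle, against 17.1, 49.8 and 31.9 CPM in control muscle. The mAktDKO mice lay close together, while the controls ranged from the lowest of all 6 mice to a level between those of the mAktDKO mice. Rian, from 109603940 to 109661716, was at 117, 118 and 87.9 CPM against 27.8, 137 and 69.2 CPM, so that control mouse 2 was the lowest and control mouse 3 the highest of all. The log2 FC was 0.55 for Meg3 (SE 0.30) and 0.47 for Rian (SE 0.44). Without control mouse 2 the values were 0.24 and 0.060, and without control mouse 3 they were 0.98 and 1.15.

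Rian counts per Meg3 count were 2.28, 2.54 and 1.89 in the mAktDKO mice and 1.63, 2.76 and 2.17 in the control mice, and both groups covered much the same range. Mirg, the next non-coding gene downstream, was at 1.97, 1.98 and 1.23 CPM against 0.629, 2.12 and 1.06 CPM (edgeR adjusted p = 0.528). Annotated inside Rian on its strand are 4 microRNA and 13 small nucleolar RNA genes, inside Meg3 2 microRNA genes, and inside H19 and Mest 1 each. The count table lists 11 of these small RNAs, and all 11 were at 0 in every mouse, so only the host transcripts are described.

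Dlk1, a membrane protein with epidermal growth factor-like repeats that restrains adipocyte formation, lies from 109452823 to 109463336. It had few counts, with levels of 3.99, 3.23 and 1.51 CPM in knockout muscle, against 0.280, 3.65 and 1.97 CPM in control muscle. Control mouse 2 had 4 counts, near the floor of 3, and control mouse 3 had 50. The log2 FC was 0.58 (SE 0.63), and it was 0.057 without control mouse 2, 1.40 without control mouse 3 and 0.29 without mAktDKO mouse 1.

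H19, a non-coding RNA expressed from the maternal copy, is known to be abundant in muscle before birth. On chromosome 7 from 142575529 to 142578143, it took between 0.0903% and 0.195% of all counts. Its level was 1649, 1795 and 1501 CPM in knockout muscle, against 975, 1511 and 1160 CPM in control muscle. Only control mouse 3 reached the range of the mAktDKO mice. The means were 1649 ± 147 and 1215 ± 272 CPM (SD, n = 3 each), with a log2 FC of 0.44 (SE 0.16) and of 0.30 without control mouse 2.

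Igf2, the paternally expressed growth factor gene that shares a control region with H19, is expressed in growing and regenerating muscle. It was at 208, 233 and 185 CPM in knockout muscle, against 41.5, 92.9 and 92.1 CPM in control muscle. The lowest mAktDKO mouse was far above the highest control. The edgeR adjusted p was 0.0474 at a log2 FC of 1.47 (SE 0.26), above the threshold of 0.01 and under 0.05. Igf2 was called at 0.01 without control mouse 2 (log2 FC 1.17, edgeR adjusted p = 0.00331) and not when any 1 mAktDKO mouse was left out (edgeR adjusted p from 0.115 to 0.22). Without control mouse 3 the edgeR adjusted p of Igf2 was 0.0827, so the call at 0.05 was lost there as well. H19 counts per Igf2 count were 7.95, 7.69 and 8.10 in the mAktDKO mice and 23.5, 16.3 and 12.6 in the control mice. The ratio was nearly constant in the mAktDKO mice and below every control. Nctc1, a muscle RNA from the same region, was at 38.7, 36.8 and 54.3 CPM against 64.4, 51.5 and 54.7 CPM (log2 FC -0.40, edgeR adjusted p = 0.16). The log2 FC of Nctc1 was -0.61 without mAktDKO mouse 3.

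**Figure D2:**
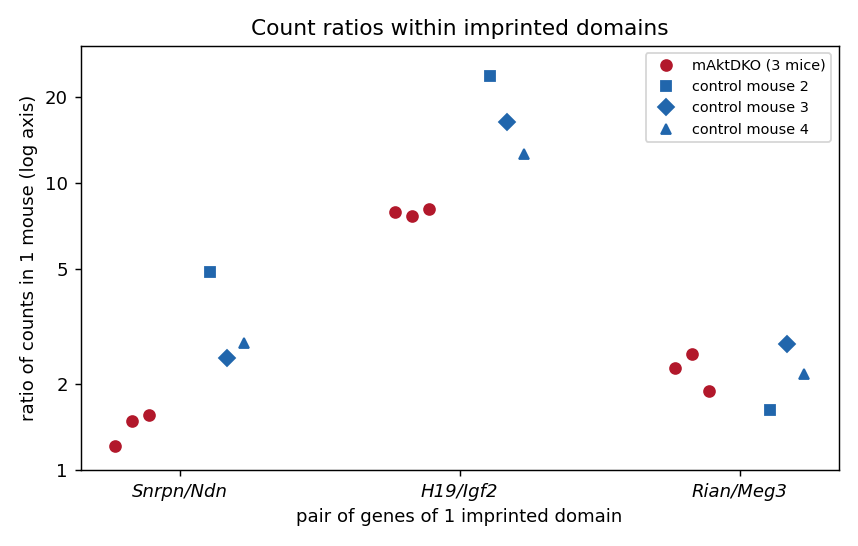
Ratios of the counts of gene pairs from the same imprinted domain within each mouse, on a log axis, with mAktDKO mice as red circles and control mice as blue symbols. Snrpn per Ndn and H19 per Igf2 were below every control in each mAktDKO mouse, with medians of 1.48 against 2.78 and 7.95 against 16.3, whereas Rian per Meg3 overlapped.

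Mest, an enzyme-like protein of the alpha/beta hydrolase fold that is raised in expanding fat tissue, lies on chromosome 6 from 30723547 to 30748465. It was at 37.5, 40.6 and 26.2 CPM in knockout muscle, against 6.01, 26.8 and 25.9 CPM in control muscle. Control mouse 2 was far below the other 5 mice, and mAktDKO mouse 3 lay between control mice 3 and 4. The log2 FC was 0.83 (SE 0.43), and 0.40 without control mouse 2. Copg2, which overlaps the end of Mest on the opposite strand, was between 17.9 and 21.0 CPM in all mice (edgeR adjusted p = 0.456). Klf14 was between 0.343 and 1.32 CPM (edgeR adjusted p = 0.611). Impact, on chromosome 18, encodes an inhibitor of the amino acid-sensing kinase Gcn2. It was at 23.1, 19.5 and 23.5 CPM in knockout muscle, against 16.7, 19.8 and 20.9 CPM in control muscle, and it varied least of the 9 higher genes among the controls. The log2 FC was 0.20 (SE 0.12), and 0.11 without control mouse 2.

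**Figure D3:**
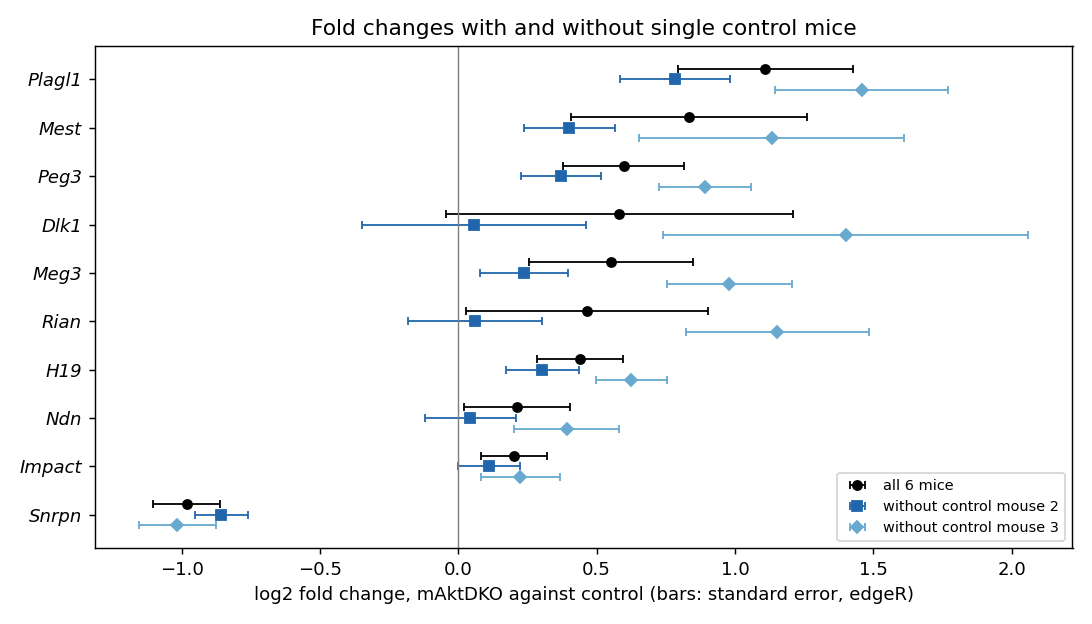
log2 fold change of each gene in mAktDKO against control mice, with its standard error from edgeR, for all 6 mice (black circles), without control mouse 2 (squares) and without control mouse 3 (diamonds). Snrpn stayed near -1, between -1.01 and -0.86, while Rian moved from 0.060 to 1.15.

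The control mice differed widely among themselves in most of the other 9 genes. The SD of log2 CPM had a median of 0.65 over the 10 genes in the control mice, beside 0.17 over all tested genes, and of 0.20 in the mAktDKO mice, beside 0.13 over all. It was largest in the controls for Dlk1 (1.65), Mest (1.22) and Rian (1.15) and smallest for Impact (0.17) and Snrpn (0.21). Control mouse 2 was the lowest of all 6 mice for 9 of the 10 genes and the highest for Snrpn, and it was the lowest of the 6 for 28.8% of all tested genes. The 10 genes were chosen by their differences between the genotypes. No conclusion is therefore drawn from setting this share or the SD beside all tested genes. Control mouse 3 was above control mouse 4 in every gene but Impact. Among the mAktDKO mice, mouse 3 was the lowest for every gene but Meg3 and Impact.

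**Figure D4:**
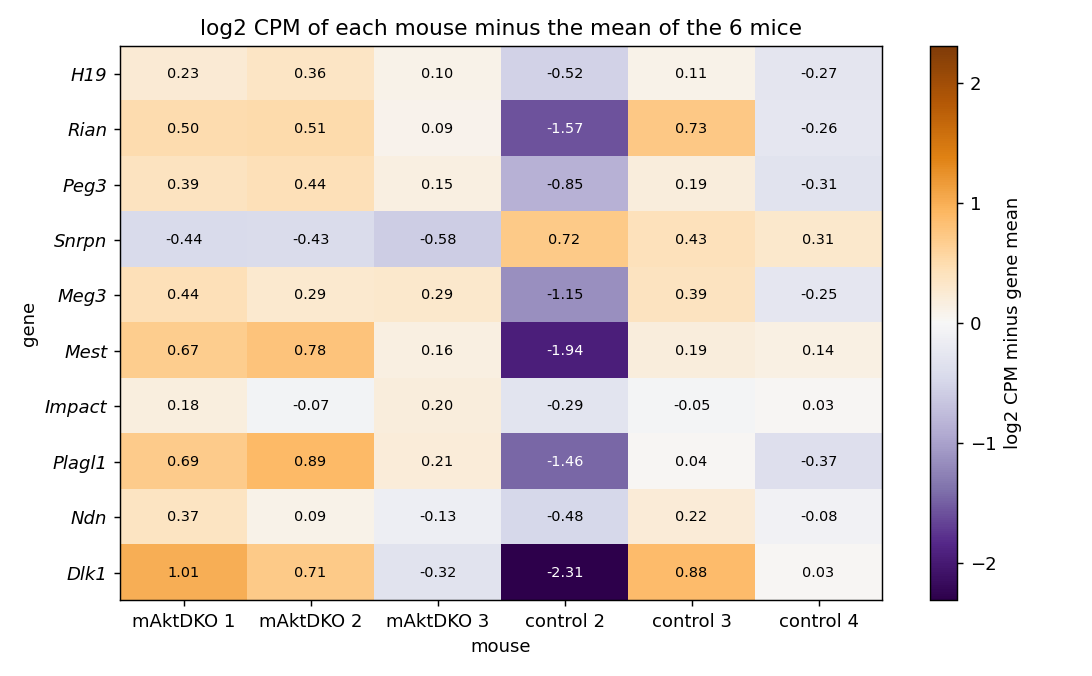
log2 CPM of each gene in each mouse after subtraction of the gene's mean over the 6 mice, with brown above and purple below the mean. Control mouse 2 was below the mean in 9 genes, by up to 2.31 for Dlk1, and above it in Snrpn, by 0.72.

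Of the summed markers of cell types other than muscle fibres, only those of fibro-adipogenic progenitors had groups that did not overlap. All 8 fast-fibre markers had a lower mean in the mAktDKO mice (summed level 123339 to 137380 CPM against 141204 to 151005 CPM). At an adjusted p under 0.01 edgeR called none of the 54 markers of all lists, and DESeq2 called 4 lower (2.61% of all genes it tested) and 5 higher (0.936%). The lower ones were the fast-fibre genes Myh1, Tnni2 and Pvalb and Myh3 of newly formed fibres, and the higher ones were Dcn of fibro-adipogenic progenitors, the tendon genes Tnmd and Fmod, Myog of newly formed fibres and the globin gene Hbb-bs. At 0.05 edgeR called Myh3 (log2 FC -1.30) and Hbb-bs, which was at 23.5, 9.23 and 10.01 CPM in knockout muscle and had 0 counts in every control. All 6 markers of fibro-adipogenic progenitors had a higher mean in the mAktDKO mice, with groups apart for Pdgfra and Dcn and with a summed level of 946 to 1068 CPM against 575, 774 and 782 CPM in control mice 2, 3 and 4. The 5 tendon cell markers also had higher means, with overlapping sums of 1176 to 1704 CPM and 900 to 1203 CPM, as did 5 macrophage markers, with overlapping sums of 105 to 133 CPM and of 72.4, 115 and 106 CPM in control mice 2, 3 and 4. All 5 adipocyte markers were higher in the mean, with overlapping sums of 23.1 to 74.0 and 15.1 to 37.05 CPM, as were all 5 Schwann cell markers, with sums of 281 to 390 and 275 to 306 CPM, and 5 blood markers, with sums of 150 to 320 and 114 to 168 CPM. For endothelial cells 4 of 5 markers had a higher mean (sums of 404 to 470 and 334 to 434 CPM), and for satellite cells 3 of 5 did (28.4 to 34.1 and 30.1 to 35.7 CPM). Of the 5 markers of newly formed fibres 4 had a higher mean, among them Myog (log2 FC 1.06), and Myh3 a lower one. They were dominated by Actc1 and summed to 1518, 921 and 836 CPM in knockout muscle, against 196, 1729 and 406 CPM in control mice 2, 3 and 4. The controls had this order in the summed macrophage markers and in Ndn, Peg3, Mest, Meg3, Rian, H19, Plagl1 and Dlk1 as well. The share of all tested genes with this order was not counted. No defining marker of any list was at 0 in all mice. The part of these cells in the levels of the imprinted genes was not tested, and in whole muscle fewer cells of a type cannot be told apart from less RNA per cell.

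A wider list of 59 imprinted genes outside the 10 was used to describe other domains. Of these, 58 were in the table and 42 passed the filter. None of the 42 was called at an adjusted p under 0.01 with edgeR, 7 were higher and 5 lower at an unadjusted p under 0.05 (11.4% and 13.1% of all tested genes), and DESeq2 called Igf2 and Slc38a4, both higher (0.936%). At an adjusted p under 0.05 edgeR called Igf2 alone, against 0.264% of all tested genes in that direction. By fold change 28 of the 42 were higher and 14 lower, beside 52.5% of all tested genes higher, and the median was 0.17, beside 0.017 over all. Without control mouse 2 it was 0.10, as it was without mAktDKO mouse 2 or mouse 3. With library totals in place of TMM, 34 of the 42 were higher and 8 lower, and the median was 0.31, beside 0.16 over all. The groups did not overlap for 10 genes higher (14.6% of all tested genes) and 4 lower (16.6%). Without control mouse 2, groups were apart for 13 higher and 6 lower genes, beside 19.2% and 19.8% of all tested genes.

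The higher genes with the smallest p after Igf2 were Slc38a4 and Sgce. Slc38a4, an amino acid transporter gene, was at 124, 122 and 131 CPM in knockout muscle, against 79.5, 103 and 96.7 CPM in control muscle (log2 FC 0.44, SE 0.10, edgeR adjusted p = 0.0635). Sgce, which encodes a sarcoglycan of the dystrophin-associated complex, had a log2 FC of 0.64 (SE 0.16, edgeR adjusted p = 0.0752). Cdkn1c, a maternally expressed inhibitor of cyclin-dependent kinases, was at 89.2, 80.6 and 68.7 CPM against 23.1, 62.0 and 47.9 CPM (log2 FC 0.84, SE 0.29, edgeR adjusted p = 0.128). Its log2 FC was 0.53 without control mouse 2. Grb10, an adaptor that dampens insulin receptor signalling, had a log2 FC of 0.31 (SE 0.13, edgeR adjusted p = 0.184), with control mouse 2 at 94.9 CPM and the other 5 mice between 129 and 155 CPM. Without that mouse the log2 FC of Grb10 was 0.16. Igf2r, the receptor that clears the Igf2 protein, was at 217 to 231 CPM in knockout muscle, against 218 to 232 CPM in the controls (edgeR adjusted p = 0.938).

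The lower genes with the smallest p were Pon3, Trappc9 and Commd1. Pon3, a lactone-hydrolysing enzyme gene, had a log2 FC of -0.34 (SE 0.093, edgeR adjusted p = 0.0853), Trappc9, of the vesicle-tethering complex, one of -0.37 (SE 0.11, edgeR adjusted p = 0.101), and Commd1, a copper-handling gene, one of -0.24 (SE 0.083, edgeR adjusted p = 0.138). Without control mouse 2 that of Trappc9 was -0.24. For these 3 every mAktDKO mouse was below every control.

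**Figure D5:**
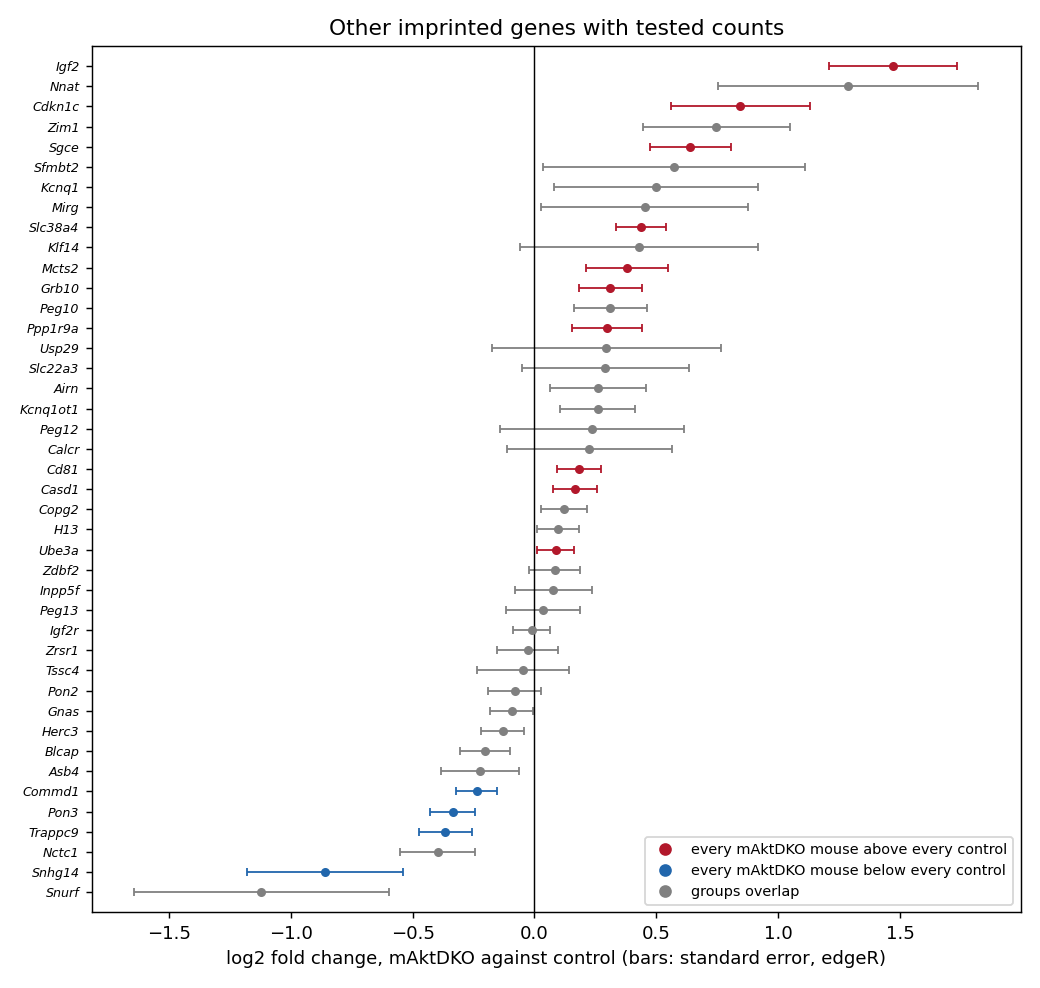
log2 fold change in mAktDKO against control mice, with its standard error from edgeR, for the 42 tested imprinted genes outside the 10. Red and blue mark genes whose groups did not overlap, 10 higher and 4 lower, and Igf2 had the highest value, 1.47.

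Levels were compared between genes per kilobase of the longest annotated transcript, on the CPM scale. In the control mice H19 was at 532 CPM per kilobase, followed by Snrpn (16.3), Rian (9.66), Peg3 (7.38), Mest (7.34), Impact (5.09), Ndn (2.87), Meg3 (2.26), Plagl1 (2.13) and Dlk1 (0.422). Neighbours in this order overlapped between mice except H19 with Snrpn, Impact with Ndn and Plagl1 with Dlk1. In the mAktDKO mice H19 was at 721 CPM per kilobase and Snrpn at 8.24, after Rian (13.3), Mest (13.04) and Peg3 (11.2). With these lengths Snrpn was thus above Peg3 in every control mouse and below it in every mAktDKO mouse. Which transcripts of each gene were expressed was not measured, and other lengths could change the order.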

How the data were processed

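Libraries of ribosomal RNA-depleted RNA from 3 mAktDKO and 3 control floxed mice were sequenced by the authors with strand-marking kits and paired-end reads, mapped to mm10 with STAR and counted with RSEM 1.3.1 (the submitters' processing notes give STAR 2.6.1b). The annotation and the strand setting are not given in the sources used here. The deposited values are the estimated counts per gene that RSEM gives, without scaling between mice. Column names of the controls run from 2 to 4 while their labels run from 1 to 3, and each such column was used as a member of its group without a sample name.

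Estimated counts were rounded in R 4.3.3. Genes were kept by the filterByExpr function (minimum count 10) of edgeR 4.0.16, which also gave the TMM scaling and, over all genes, the quasi-likelihood test. Its p-values were adjusted by the Benjamini-Hochberg method and called under 0.01. A standard error is the log2 fold change divided by the square root of F, and a prior count of 2 enters each log2 CPM value. The steps were tested on simulated data. Positions and transcript lengths are from GENCODE M21 and promoter sequences from RefSeq (GRCm38.p6). Alternatives were other scalings, DESeq2 1.42.0, other filters, an adjusted p under 0.05, summed counts of overlapping genes and leaving out each mouse.

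The genes and lists were chosen with earlier results of these data known. Named are the 10 genes, Akt1 and Akt2, Igf2, Igf2r, Grb10, Cdkn1c, tested genes sharing a domain with the 10, any other imprinted gene called, the 3 higher and 3 lower imprinted genes with the smallest p, Snrpb and the 2 splicing genes with the smallest p, and the 5 genes most like Snrpn. Snrpf and the named cell type markers were chosen after their values were seen.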

Additional observations from a re-analysis of the deposited data

How the results depend on the processing

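No paired analysis was possible because numbers in the names of the control libraries differ from those in their labels. With edgeR the number of genes called was 3 with the other scalings and with at least 10 counts in every mouse, 32 of 17360 with no filter on low counts, 152 at an adjusted p under 0.05, 341 of 9616 with DESeq2, and from 0 to 8 without 1 mouse; a count of 0 came with each mAktDKO mouse left out, where an unadjusted p under 0.05 was reached by 2441, 1871 and 2794 genes. For the other imprinted genes the number was 2 with DESeq2, 1 at an adjusted p under 0.05 and from 0 to 1 without 1 mouse, and 0 with the other scalings and filters. For the Sm and snRNP genes it was 0 in all of these. Why edgeR and DESeq2 differ, the cause, was not tested. The log2 fold change of Snrpn was -0.49 when its counts were summed with those of Snrpb, a sum made mostly of Snrpb counts, and from -1.07 to -0.86 without 1 mouse.

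All 10 genes kept the sign of their log2 fold change in the 122 alternatives run for them. Library totals in place of TMM moved the median of all genes from 0.017 to 0.16, and relative to it the median of the 10 genes was 0.48, beside 0.49 with TMM; Igf2r was then at 0.13. Leaving out 1 mouse gave log2 fold changes between -0.039 and 0.0082 for Igf2r, between -0.14 and 0.46 for Peg12, between -0.13 and 0.70 for Usp29 and between -0.0016 and 0.77 for Klf14. The median of the 10 genes was 0.17 without control mouse 2 and 0.94 without control mouse 3, against 0.51 with all mice. Of 266 comparisons of the other named genes with an alternative, 3 were weaker (Akt2 without any 1 mAktDKO mouse), 3 stronger (Igf2 with DESeq2 and without control mouse 2, Slc38a4 with DESeq2) and 5 changed sign. Dlk1 rested on 4 to 63 counts in a mouse, the fewest of the 10 genes.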
